A study of Homo sapiens with 6 samples.

Results

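The genes MDM2, MDM4, TP53INP1, ZMAT3, SESN1, BTG2, GDF15, RRM2B and PHLDA3 were followed in the human melanoma cell line A375 after treatment with fluvastatin. They were taken by name as regulators or transcriptional targets of the tumour suppressor p53, and all 9 had a row among the 29790 genes of the expression table. RNA was sequenced from 3 libraries of cells given 3 µM fluvastatin for 24 h and from 3 libraries of untreated control cells grown in parallel, numbered 0, 1 and 2 in each group, and no vehicle is named for the controls. Fluvastatin is a statin and blocks HMG-CoA reductase, the enzyme that makes mevalonate for sterols and isoprenoid lipids. A375 is an established line known to carry an activating BRAF mutation and wild-type p53, and all cells come from that single line. The labels call the samples triplicates and name no separate cultures. The spread behind each p-value is therefore that between libraries, and it may be technical only.

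p53 is a transcription factor held at a low level by MDM2, a ubiquitin ligase that marks it for degradation, and by MDM4, a related protein that binds p53 and masks its activation domain. MDM2 is itself a p53 target, which closes a feedback loop. When p53 is stabilised by DNA damage or other stress, its targets stop the cell cycle, repair DNA, adjust metabolism or start apoptosis. Many of these targets also respond to other transcription factors, such as ATF4 or FOXO proteins.

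Values were taken as FPKM, fragments scaled by transcript length and by library size, so levels of different genes can be set side by side per length. They are averages over all cells of a culture, in which more expressing cells and more RNA per cell cannot be told apart. Relative depth, estimated from the steps between low values, was 1.274, 1.507 and 1.398 in fluvastatin replicates 0, 1 and 2, against 1.184 and 0.962 in control replicates 1 and 2 and 1 in control replicate 0. No control was as deep as any fluvastatin library, so depth and treatment cannot be told apart. Of 10 melanoma markers 8 were analysed here and 5 reached 1 FPKM in at least 3 libraries (SOX10, MIA, CSPG4, MCAM and NES), whereas PMEL, S100B and DCT stayed below 1 FPKM in every library. Among those 5, SOX10 rose 3.09-fold, CSPG4 2.45-fold and MIA 1.56-fold after fluvastatin (limma adjusted p = 4.66e-04, 4.13e-04 and 0.0315), and MCAM and NES did not pass. Whether these markers have a part in the other results was not tested. The epithelial markers EPCAM and CDH1 and the endothelial markers PECAM1 and CDH5 were at most 0.125 FPKM in any library.

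Promoter sequences are shown for the members in which a p53 response element consensus (a pair of adjacent 10-base p53 half-sites, 20 bases, which reads the same on both strands) was matched with at most 3 mismatches. RefSeq windows on GRCh38.p14 ran from 250 bases before to 50 bases after a transcript start. They were read for 6 of the 9 members (12 windows), and 4 of these windows held a match. Of those 4, 2 are overlapping windows of MDM2 that hold the same matches, so they are not separate promoters. Of all 35116 windows 5.2% held a match, and 0.65% held one with at most 2 mismatches. A match is a description of letters and not evidence of binding. The first stretch lies on the plus strand at chr12:68808767-68809001, inside MDM2 and just before its internal start, the one known as the p53-responsive promoter of the gene. It held 2 matches, with 2 and 3 mismatches. The second lies on the minus strand at chr6:109008989-109009238, before an internal start of SESN1, and held 1 match with 3 mismatches. The third is the matched site alone, on the plus strand at chr19:18386186-18386205 within an exon of GDF15, with 3 mismatches. Capitals mark the matches.
MDM2: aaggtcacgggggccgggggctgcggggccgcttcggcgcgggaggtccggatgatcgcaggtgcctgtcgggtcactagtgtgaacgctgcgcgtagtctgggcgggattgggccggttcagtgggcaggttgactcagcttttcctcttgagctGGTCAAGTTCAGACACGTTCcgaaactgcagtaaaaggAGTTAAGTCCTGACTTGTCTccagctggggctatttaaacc
SESN1: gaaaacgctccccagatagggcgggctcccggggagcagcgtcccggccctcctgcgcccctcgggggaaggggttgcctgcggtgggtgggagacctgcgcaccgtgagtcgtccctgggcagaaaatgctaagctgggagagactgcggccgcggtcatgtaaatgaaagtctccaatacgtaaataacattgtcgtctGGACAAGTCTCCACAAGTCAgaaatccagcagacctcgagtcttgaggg
GDF15: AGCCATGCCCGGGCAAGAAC
The windows of BTG2, MDM4 and ZMAT3 held no match at this limit, with at least 4 mismatches in each. Half-sites had to be directly adjacent, so the lack of a match does not show that a p53 element is absent. Of the 3 genes with a match, GDF15 fell and MDM2 and SESN1 did not pass the test, and of BTG2, MDM4 and ZMAT3, ZMAT3 rose. PHLDA3 and TP53INP1, which also rose, and RRM2B had no window read here. TP53INP1 and RRM2B were left out before member windows were read, so whether theirs hold a match was not tested. Matches and direction therefore cannot be compared over the members.

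PHLDA3, TP53INP1 and ZMAT3 rose after fluvastatin, by 1.94-fold, 2.49-fold and 1.65-fold in mean FPKM. GDF15 fell, to a mean of 2.40 ± 0.342 FPKM in fluvastatin libraries, against 4.13 ± 0.402 FPKM in controls (SD, n = 3 each). MDM2, MDM4, BTG2, RRM2B and SESN1 did not pass the test. All 9 members were expressed highly enough to be tested, that is 1 FPKM or more in 3 or more libraries. TP53INP1 met this limit only through the fluvastatin libraries and had to differ to do so, so the counts that follow are a description and support nothing. Of the 9 members 3 rose and 1 fell (44.4%) at an adjusted p below 0.05 (limma on log2(FPKM + 1), two-sided, Benjamini-Hochberg over 14344 genes). Among all tested genes 14.1% rose and 13.6% fell, 27.7% in all. The groups did not overlap in 5 members (MDM4, TP53INP1, ZMAT3, GDF15 and PHLDA3), and in 44.8% of all tested genes. The median log2 fold change was 0.23 over the members and -0.01 over all tested genes. When relative depth entered the fit as a covariate, 72 of the 14344 genes passed and no member did (0 higher, 0 lower). RRM2B (-0.05) and SESN1 (0.12) turned sign in that fit.

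**Figure D1:**
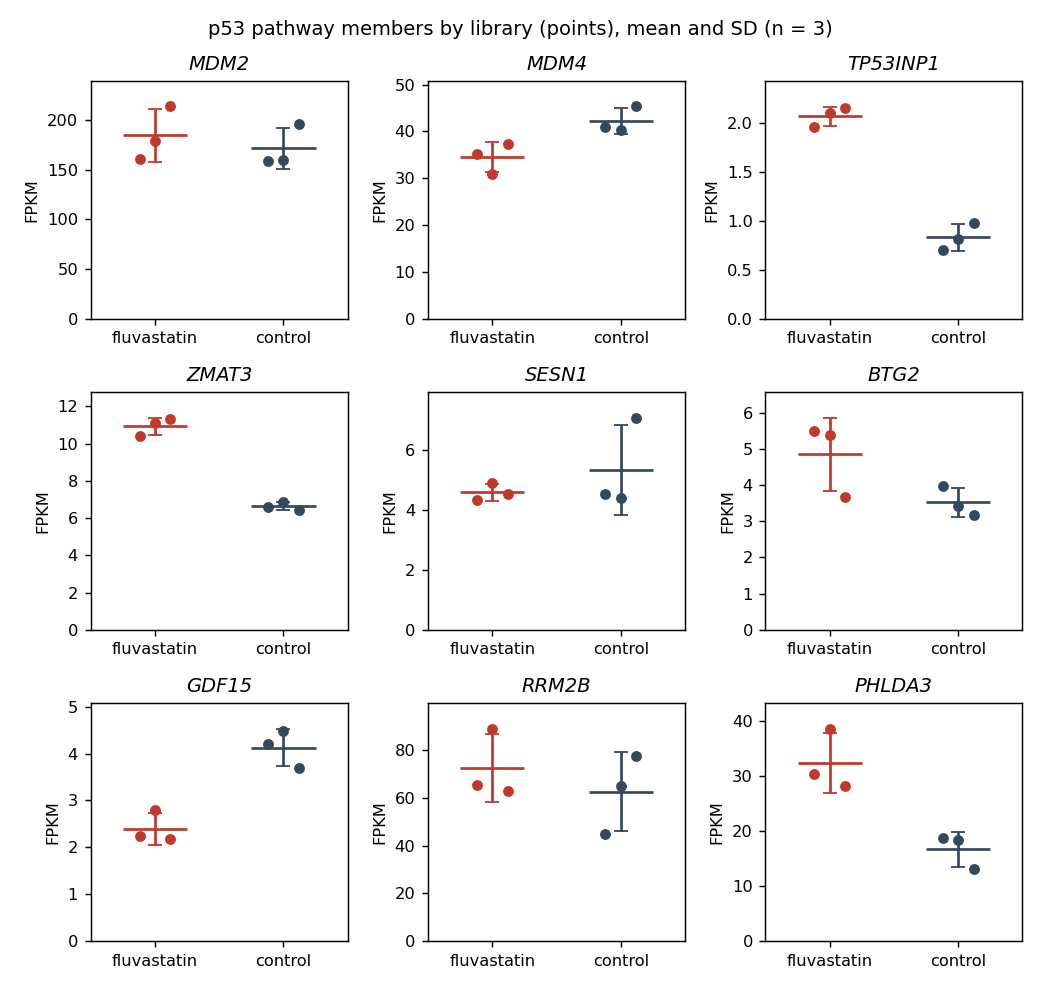
FPKM of the 9 members (vertical axes, each from 0) in the 3 fluvastatin and the 3 control libraries. Points are libraries, horizontal lines are means and bars are SDs (n = 3). The groups are apart for PHLDA3, TP53INP1, ZMAT3, GDF15 and MDM4 and overlap for the other members.

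MDM2 was the most abundant member in both groups. It had 161, 179 and 213 FPKM in fluvastatin replicates 0, 1 and 2, against 159, 160 and 195 FPKM in control replicates 0, 1 and 2. The groups overlapped, with replicate 2 the highest library in each. Mean MDM2 was 184.4 ± 26.8 FPKM in fluvastatin libraries and 171.4 ± 20.8 FPKM in controls (SD, n = 3 each), and its log2 fold change on log2(FPKM + 1) was 0.10 ± 0.14 (SE, limma adjusted p = 0.634). The 95% confidence interval of that difference ran from -0.23 to 0.44, so a modest change in either direction was within the error. Without fluvastatin replicate 2 the sign turned, at -0.01 (adjusted p = 0.974), and without control replicate 2 the value was 0.20 (adjusted p = 0.347), over a range of 0.347 to 0.974. MDM2 (ENSG00000135679.22) lies on chromosome 12 at 68808176 to 68850686 of GRCh38, plus strand. A processed pseudogene on the same strand within it, RP11-611O2.3, was at 65.2, 76.5 and 69.1 FPKM in fluvastatin libraries and at 74.1, 75.2 and 67.9 FPKM in controls, and how the authors' counting divided reads between the 2 genes is not given in the sources used here.

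MDM4, the inhibitory partner of MDM2, was lower in each fluvastatin library than in any control. It was at 35.1, 31.0 and 37.3 FPKM in fluvastatin replicates 0, 1 and 2, against 41.0, 40.3 and 45.3 FPKM in control replicates 0, 1 and 2. The log2 fold change was -0.29 ± 0.10 (SE), with a 95% confidence interval from -0.54 to -0.04 and a limma adjusted p of 0.0844, which did not pass. With depth as a covariate it was -0.08 (adjusted p = 0.871, over a range of 0.0521 to 0.871). MDM4 (ENSG00000198625.12) lies on chromosome 1 at 204516379 to 204558120, plus strand.

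The ratio of MDM2 to MDM4 FPKM within a library, chosen after the values were seen, was 4.58, 5.78 and 5.72 in fluvastatin replicates 0, 1 and 2, against 3.87, 3.97 and 4.31 in control replicates 0, 1 and 2. Its mean was 5.36 ± 0.674 in fluvastatin libraries and 4.05 ± 0.23 in controls (SD, n = 3 each). The groups did not overlap. With groups apart, the exact permutation test on the log2 ratio can only give p = 0.1, two-sided, the smallest value that 3 against 3 allows. That p-value adds nothing to the separation, and a ratio chosen after the values were seen supports nothing.

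PHLDA3, whose pleckstrin homology domain competes with that of the survival kinase AKT for membrane lipids, had the largest log2 fold change among the members at a pseudocount of 1, higher than 96.3% of all tested genes. TP53INP1 was above PHLDA3 in fold of means, and in log2 fold change at a pseudocount of 0.1 (1.23 against 0.96), with depth as a covariate (0.75 against 0.45) and without control replicate 2 (0.81 against 0.76). PHLDA3 was at 30.4, 38.6 and 28.1 FPKM in fluvastatin replicates 0, 1 and 2. In control replicates 0, 1 and 2 it was at 18.7, 18.3 and 13.0 FPKM. The lowest fluvastatin library lay above the highest control. Its log2 fold change was 0.92 ± 0.18 (SE, limma adjusted p = 0.0118), and with depth as a covariate it was 0.45 (adjusted p = 0.491, over a range of 0.00392 to 0.491). PHLDA3 (ENSG00000174307.6) lies on chromosome 1 at 201464383 to 201469237, minus strand.

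TP53INP1, a stress-induced nuclear protein that promotes p53 phosphorylation and autophagy, was the scarcest member in both groups. It was at 1.96, 2.10 and 2.15 FPKM in fluvastatin replicates 0, 1 and 2, against 0.702, 0.812 and 0.981 FPKM in control replicates 0, 1 and 2. Each fluvastatin library was well above each control, and the spread within either group was small beside the gap. The log2 fold change was 0.75 ± 0.09 (SE, limma adjusted p = 0.00259) with a pseudocount of 1 and 1.23 with a pseudocount of 0.1, since the larger pseudocount compresses low values. With every gene tested and no filter the adjusted p was 0.00451, and with depth as a covariate it was 0.149, over a range of 0.00245 to 0.149. TP53INP1 (ENSG00000164938.13; chromosome 8, 94925972 to 94949411, minus strand) overlaps NDUFAF6 on the opposite strand. NDUFAF6 was at 15.1, 17.0 and 16.4 FPKM in fluvastatin libraries and at 23.5, 19.4 and 19.9 FPKM in controls, lower in every fluvastatin library. Without a stated strand setting, reads in the overlap of these genes cannot be told apart.

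ZMAT3, a zinc-finger RNA-binding protein that acts on splicing and mRNA stability, was the most tightly measured of the members that rose. It was at 10.4, 11.1 and 11.3 FPKM in fluvastatin replicates 0, 1 and 2, against 6.62, 6.87 and 6.43 FPKM in control replicates 0, 1 and 2. Libraries of one group agreed closely, with a coefficient of variation of 4.25% in fluvastatin libraries and 3.31% in controls. Its log2 fold change was 0.64 ± 0.08 (SE, limma adjusted p = 0.00280), and with depth as a covariate 0.52 (adjusted p = 0.197, over a range of 0.00133 to 0.197). ZMAT3 (ENSG00000172667.10) lies on chromosome 3 at 179017223 to 179072279, minus strand.

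GDF15, a secreted cytokine of the TGF-beta superfamily that p53 and the integrated stress response both induce, went against the other called members. It was at 2.23, 2.79 and 2.17 FPKM in fluvastatin replicates 0, 1 and 2, against 4.21, 4.49 and 3.69 FPKM in control replicates 0, 1 and 2. All fluvastatin libraries lay below all controls, at low levels in each. The control mean was 1.72 times the fluvastatin mean, and the log2 fold change was -0.60 ± 0.11 (SE, limma adjusted p = 0.0104). With depth as a covariate the value was -0.90 and did not pass (adjusted p = 0.115, over a range of 0.0106 to 0.115). GDF15 (ENSG00000130513.6) lies on chromosome 19 at 18374731 to 18389176, plus strand.

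BTG2, an antiproliferative protein that recruits the mRNA deadenylation machinery, did not pass with all libraries in the fit. It was at 5.48, 5.39 and 3.68 FPKM in fluvastatin replicates 0, 1 and 2, against 3.97, 3.43 and 3.18 FPKM in control replicates 0, 1 and 2. Fluvastatin replicate 2 lay within the control range and the other two fluvastatin libraries above it. The log2 fold change was 0.36 ± 0.15 (SE, limma adjusted p = 0.127) and passed only without fluvastatin replicate 2, at 0.51 (adjusted p = 0.0361, over a range of 0.0361 to 0.567). BTG2 (ENSG00000159388.5) lies on chromosome 1 at 203305491 to 203309602, plus strand.

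SESN1, a sestrin that restrains the growth kinase complex mTORC1 when amino acids are scarce, was at 4.35, 4.92 and 4.54 FPKM in fluvastatin replicates 0, 1 and 2, against 4.53, 4.41 and 7.10 FPKM in control replicates 0, 1 and 2. Control replicate 2 stood above the other 5 libraries, which overlapped. SESN1 had a log2 fold change of -0.16 ± 0.17 (SE, limma adjusted p = 0.535), and 0.03 without control replicate 2 (adjusted p = 0.831). Without control replicate 1 it was -0.26 (adjusted p = 0.358), over a range of 0.343 to 0.881. SESN1 (ENSG00000080546.13) lies on chromosome 6 at 108986437 to 109094819, minus strand.

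RRM2B, the p53-inducible small subunit of ribonucleotide reductase that supplies deoxynucleotides outside S phase, had the second highest level and varied widely. It was at 65.3, 89.0 and 63.0 FPKM in fluvastatin replicates 0, 1 and 2, against 44.98, 65.0 and 77.7 FPKM in control replicates 0, 1 and 2. The groups overlapped, with coefficients of variation of 19.8% in fluvastatin libraries and 26.4% in controls. The log2 fold change was 0.22 ± 0.23 (SE, limma adjusted p = 0.506), with a 95% confidence interval from -0.32 to 0.77, and it was 0.01 without control replicate 0 (adjusted p = 0.980) and 0.07 without fluvastatin replicate 1 (adjusted p = 0.859). Without control replicate 2 it was 0.40 (adjusted p = 0.243), over a range of 0.243 to 0.980. RRM2B (ENSG00000048392.11) lies on chromosome 8 at 102204502 to 102239118, minus strand.

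**Figure D2:**
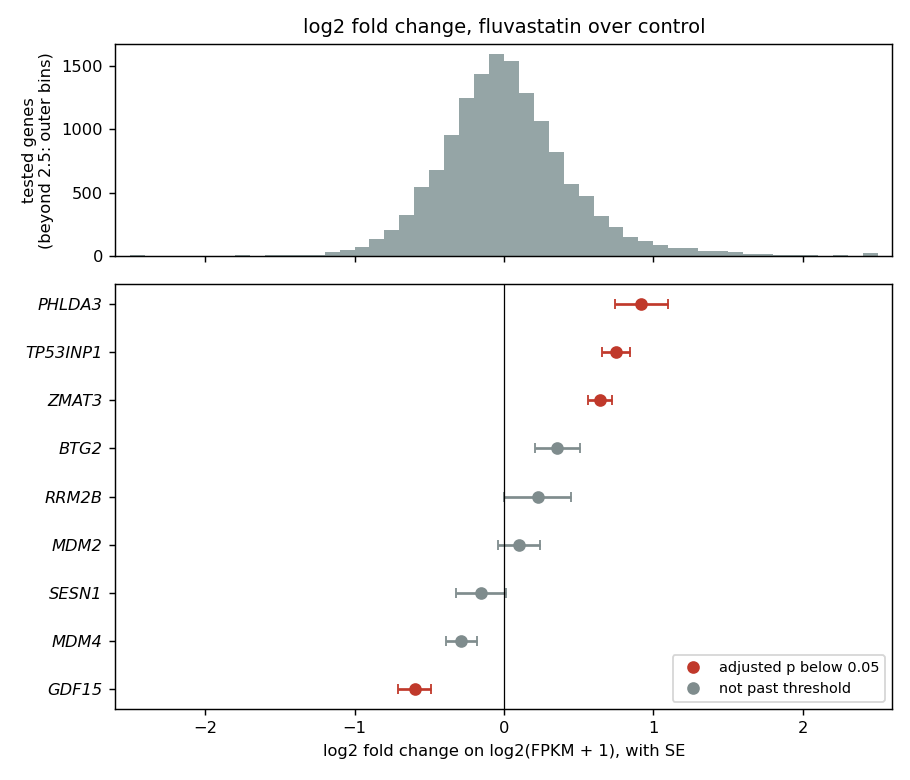
Top, number of tested genes by log2 fold change (14344 genes), fluvastatin over control on log2(FPKM + 1). Bottom, the 9 members on the same horizontal axis, with SE bars and red for an adjusted p below 0.05. PHLDA3, TP53INP1 and ZMAT3 stand to the right at 0.92, 0.75 and 0.64 and GDF15 to the left at -0.60.

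By mean FPKM the members in fluvastatin libraries came in the order MDM2, RRM2B, MDM4, PHLDA3, ZMAT3, BTG2, SESN1, GDF15 and TP53INP1. In controls the order was MDM2, RRM2B, MDM4, PHLDA3, ZMAT3, SESN1, GDF15, BTG2 and TP53INP1. In fluvastatin libraries the ranges of neighbours overlapped for MDM4 and PHLDA3 and for BTG2 and SESN1. In controls they overlapped for RRM2B and MDM4, for ZMAT3 and SESN1, for SESN1 and GDF15 and for GDF15 and BTG2. PHLDA3 averaged 32.3 ± 5.50 FPKM in fluvastatin libraries and 16.7 ± 3.17 FPKM in controls, beside MDM4 at 34.5 ± 3.21 FPKM in fluvastatin libraries and 42.2 ± 2.73 FPKM in controls (SD, n = 3 each). The 5 genes whose values over the 6 libraries lay nearest to those of MDM2, among 10175 candidates averaging 5 FPKM or more, were C8orf88, FNTA, GARS, ZNF189 and HINT1, at Euclidean distances of 0.110 to 0.137 on control-centred log2(FPKM + 1).

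Relatives and partners of the members were followed next, from a list of 11 genes of which 10 were tested, and 6 rose, 2 fell and 2 did not pass (80% called against 27.7% of all tested genes). Their median log2 fold change was 0.57, against -0.01 over all tested genes. The lists were chosen with earlier results of these data known, so such shares are a description and support nothing. SESN2 is on this list and also among the other p53 target genes. Of the genes for antiproliferative BTG/TOB proteins related to BTG2, TOB1, BTG1 and TOB2 rose in RNA and BTG3 did not pass. TOB1 rose to 22.7, 26.7 and 31.7 FPKM in fluvastatin replicates 0, 1 and 2, against 13.0, 13.2 and 10.5 FPKM in control replicates 0, 1 and 2, a 2.21-fold higher mean with no overlap (limma adjusted p = 0.00388). BTG1 rose 1.58-fold (limma adjusted p = 0.0120) and TOB2 1.23-fold (0.0486). The TOB2 call was lost without any single library (limma adjusted p of 0.0752 to 0.132) and with quantile normalization (0.0503), over a range of 0.0306 to 0.531. BTG3 was at 20.02 ± 3.14 FPKM in fluvastatin libraries and 22.9 ± 2.514 FPKM in controls (SD, n = 3 each; limma adjusted p = 0.367).

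The paralogs of PHLDA3, which also carry a pleckstrin homology domain, rose with it. PHLDA1 was at 250, 266 and 284 FPKM in fluvastatin replicates 0, 1 and 2, against 131, 137 and 162 FPKM in control replicates 0, 1 and 2, and PHLDA2 rose 1.71-fold (limma adjusted p = 0.00268 for PHLDA1 and 0.00942 for PHLDA2). TP53INP2, the autophagy-promoting relative of TP53INP1, was at 5.52, 5.66 and 5.72 FPKM in fluvastatin libraries and at 3.44, 3.83 and 3.80 FPKM in controls (limma adjusted p = 0.00682). The groups were apart for all 3 of these genes, as they were in 44.8% of all tested genes.

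Ribonucleotide reductase consists of the large subunit RRM1 with either RRM2, the S-phase small subunit, or RRM2B. RRM2 fell to 160, 159 and 160 FPKM in fluvastatin replicates 0, 1 and 2, against 259, 254 and 236 FPKM in control replicates 0, 1 and 2 (log2 fold change -0.64 ± 0.08, SE; limma adjusted p = 0.00284). RRM1 fell to a mean of 53.6 ± 5.37 FPKM in fluvastatin libraries, against 78.5 ± 9.53 FPKM in controls (SD, n = 3 each; limma adjusted p = 0.0219). The RRM1 call was lost without control replicate 0 (0.0539), fluvastatin replicate 0 (0.0716) or fluvastatin replicate 1 (0.0583), the values running between 0.00786 and 0.459. The ratio of RRM2B to RRM2, chosen after the values were seen, was 0.407, 0.560 and 0.394 in fluvastatin replicates 0, 1 and 2, against 0.174, 0.256 and 0.329 in control replicates 0, 1 and 2. The groups did not overlap, so the exact permutation p could only be 0.1, two-sided, the smallest value possible, and it adds nothing. The ratio of RRM1 to RRM2 was 0.336 ± 0.0342 in fluvastatin libraries and 0.316 ± 0.053 in controls (SD, n = 3 each; exact permutation p = 0.7). RRM2B itself did not pass the test.

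The sestrin SESN2, which p53 and ATF4 both induce, was at 24.8, 21.2 and 23.6 FPKM in fluvastatin replicates 0, 1 and 2, against 7.30, 12.8 and 18.1 FPKM in control replicates 0, 1 and 2. The groups did not overlap but the controls spread widely, and the call missed the threshold (log2 fold change 0.90 ± 0.29, SE; limma adjusted p = 0.0596). It passed without control replicate 2 (0.0197), with only genes of at least 5 FPKM on average (0.0451) and with trend and robust on (0.0479), over a range of 0.0197 to 0.397. Without control replicate 2 the log2 fold change was 1.18, and without control replicate 0 it was 0.57 and did not pass. The ratio of SESN2 to SESN1, also chosen after the values were seen, was 5.71, 4.31 and 5.20 in fluvastatin libraries and 1.61, 2.90 and 2.56 in controls. With these groups apart the exact permutation p could only be 0.1, the smallest value possible, and it adds nothing. SESN3 stayed below 1 FPKM in every library and was not tested.

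**Figure D3:**
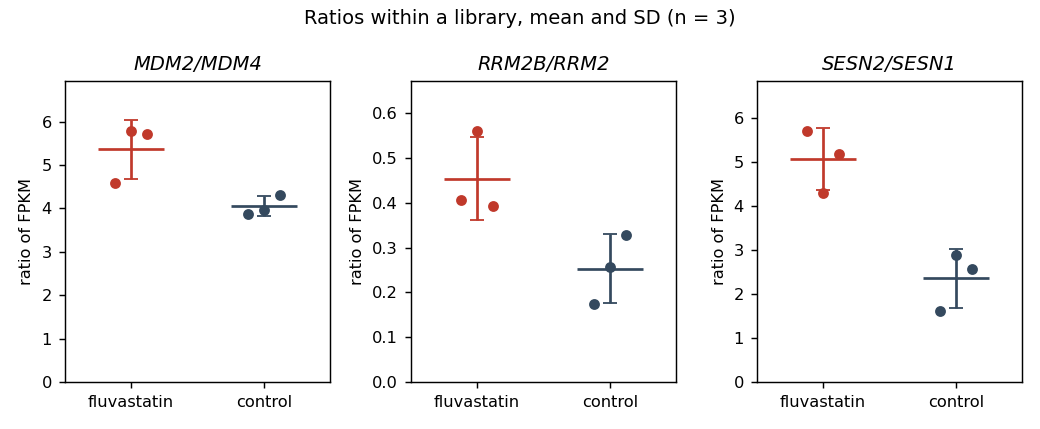
Ratio of FPKM values within a library (vertical axes, each from 0) for MDM2 to MDM4, RRM2B to RRM2 and SESN2 to SESN1. Points are the 3 fluvastatin and the 3 control libraries, lines are means and bars are SDs (n = 3). For each ratio drawn all fluvastatin libraries lie above all controls. These ratios were chosen after the values were seen, and the ratio of RRM1 to RRM2, which overlapped between the groups, is not drawn.

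Of 34 other p53 target genes 33 were in the table and tested, and 10 rose, 2 fell and 21 did not pass. That is 36.4% called against 27.7% of all tested genes, with a median log2 fold change of 0.30 against -0.01. This list too was chosen with earlier results known, so its share is a description only. Among targets that stop the cell cycle, SFN (14-3-3 sigma, which keeps cyclin B and CDK1 out of the nucleus) was at 44.6, 52.4 and 46.5 FPKM in fluvastatin replicates 0, 1 and 2, against 12.04, 13.4 and 10.3 FPKM in control replicates 0, 1 and 2. It had the largest log2 fold change of the list, 1.92 ± 0.12 (SE, limma adjusted p = 3.30e-04), and was the only gene among the tested members, other targets, regulators and relatives that passed with depth as a covariate (adjusted p = 0.0483, over a range of 2.01e-05 to 0.0483). CDKN1A, the kinase inhibitor p21, was at 173, 187 and 147 FPKM in fluvastatin libraries and at 75.7, 70.5 and 58.8 FPKM in controls (limma adjusted p = 0.00162). The stress sensor GADD45A rose 1.66-fold (limma adjusted p = 0.00400). PLK2, a polo-like kinase, fell to 92.2, 119 and 118 FPKM in fluvastatin replicates 0, 1 and 2, against 205, 207 and 206 FPKM in control replicates 0, 1 and 2 (log2 fold change -0.91 ± 0.12, SE; limma adjusted p = 0.00313).

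Targets of the apoptotic arm moved in part. BBC3, the BH3-only protein PUMA, was at 34.0, 20.9 and 15.3 FPKM in fluvastatin replicates 0, 1 and 2, against 6.47, 5.97 and 6.36 FPKM in control replicates 0, 1 and 2, so the fluvastatin libraries were all higher but differed among themselves. PERP, a membrane protein of apoptosis and of desmosomes, rose 2.01-fold (limma adjusted p = 7.95e-04), and the oxidoreductase TP53I3 rose 1.77-fold (0.0101). EDA2R, a receptor of the TNF receptor family, rose 1.47-fold (limma adjusted p = 0.0119). APAF1, the scaffold of the apoptosome, rose 1.78-fold (limma adjusted p = 0.0305), a call lost with no filter (0.0815) and when control replicate 0 (0.0502) or any fluvastatin library (0.0651 to 0.0941) was left out; the values ran between 0.0147 and 0.0941. Of the more abundant targets that did not pass, the BH3-only gene PMAIP1 was at 93.0 ± 9.47 FPKM in fluvastatin libraries and 66.0 ± 12.3 FPKM in controls (limma adjusted p = 0.0539), and it passed in 6 of 14 alternatives, without control replicate 2 among them (0.0241, over a range of 0.0241 to 0.518). The pore-forming BAX was at 152.9 ± 22.4 FPKM in fluvastatin libraries and 121.0 ± 22.4 FPKM in controls (0.174), and the death receptor TNFRSF10B at 59.6 ± 1.13 FPKM in fluvastatin libraries and 52.1 ± 2.29 FPKM in controls (0.125, limma; SD, n = 3 each).

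The remaining calls of that list were small. RPS27L, a ribosomal protein paralog, rose 1.38-fold (limma adjusted p = 0.0260), a call lost when control replicate 0, control replicate 1 or any fluvastatin library was left out (0.0619 to 0.0795; over a range of 0.00863 to 0.428). SUSD6 rose 1.43-fold (limma adjusted p = 0.0390) and lost its call when any library but control replicate 2 was left out (0.0637 to 0.114), after quantile normalization (0.0525) and under trend and robust settings (0.110), over a range of 0.0311 to 0.460. FBXO22, a ubiquitin ligase subunit, fell to 38.5 ± 3.45 FPKM in fluvastatin libraries, against 56.5 ± 8.14 FPKM in controls (SD, n = 3 each; limma adjusted p = 0.0239). That call was lost without control replicate 0 (0.0508) or fluvastatin replicate 0 (0.0789) or 2 (0.0768) and with no filter (0.0502), over a range of 0.00931 to 0.327. CCNG1, cyclin G1, was at 141.0 ± 22.8 FPKM in fluvastatin libraries and 172.2 ± 11.7 FPKM in controls (SD, n = 3 each; limma adjusted p = 0.154).

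**Figure D4:**
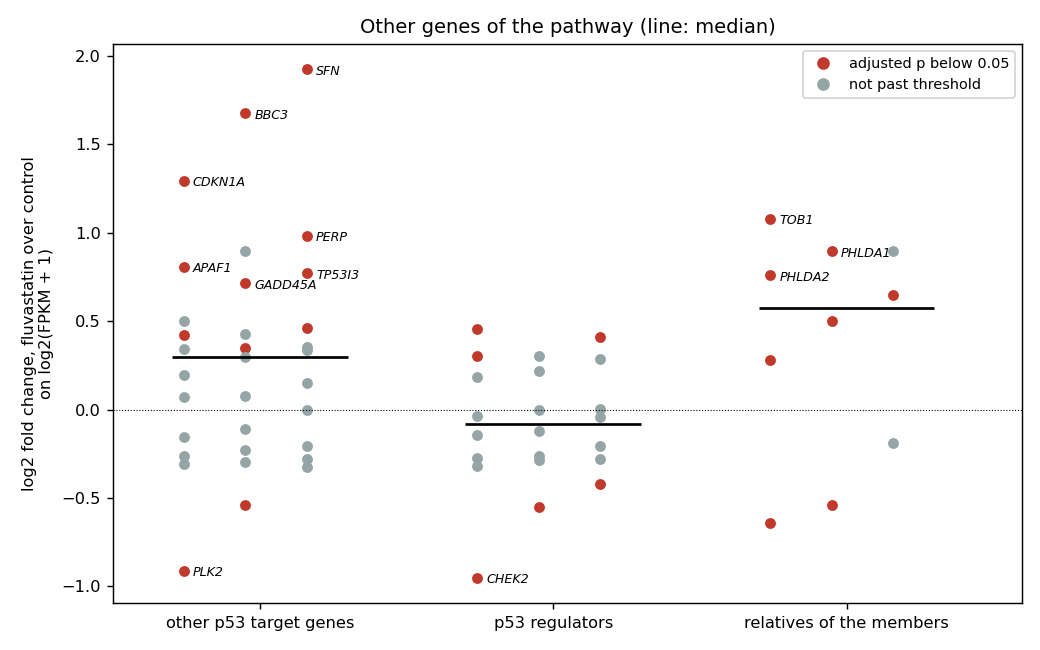
Log2 fold change, fluvastatin over control on log2(FPKM + 1) (vertical axis), of 33 other p53 target genes, 22 p53 regulators and 10 relatives of the members. Each point is a gene, red for an adjusted p below 0.05, and horizontal lines are list medians of 0.30, -0.08 and 0.57. SFN is highest among the targets at 1.92 and CHEK2 lowest among the regulators at -0.95.

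Genes whose products act on p53 or on the MDM2 and MDM4 proteins showed no common direction. Of 22 tested, 3 rose, 3 fell and 16 did not pass (27.3% called against 27.7% of all tested genes), and their median log2 fold change was -0.08. CHEK2, a checkpoint kinase that phosphorylates p53, fell to 5.10, 6.07 and 9.17 FPKM in fluvastatin replicates 0, 1 and 2, against 11.04, 16.3 and 14.2 FPKM in control replicates 0, 1 and 2 (limma adjusted p = 0.0218). Its call was lost without control replicate 1 (0.0664) or 2 (0.0559), without fluvastatin replicate 0 (0.0650) or 1 (0.0682) and with no filter (0.0627), over a range of 0.00980 to 0.178. ATR, the kinase of stalled replication forks, fell to 15.98 ± 1.17 FPKM in fluvastatin libraries, against 21.7 ± 0.556 FPKM in controls (SD, n = 3 each; limma adjusted p = 0.0161). NPM1, the nucleolar phosphoprotein that can bind MDM2, fell to 1158, 1320 and 1326 FPKM in fluvastatin replicates 0, 1 and 2, against 2076, 1747 and 1766 FPKM in control replicates 0, 1 and 2 (limma adjusted p = 0.0129).

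Among regulators that rose, RPL11, a ribosomal protein that inhibits MDM2 when ribosome assembly is disturbed, was at 984, 895 and 885 FPKM in fluvastatin replicates 0, 1 and 2, against 664, 667 and 679 FPKM in control replicates 0, 1 and 2 (limma adjusted p = 0.0101). Its partner RPL5 was at 433.2 ± 18.7 FPKM in fluvastatin libraries and 471.9 ± 36.0 FPKM in controls (limma adjusted p = 0.380), and RPS27A, which encodes ubiquitin fused to a ribosomal protein, at 747.6 ± 55.2 FPKM in fluvastatin libraries and 747.5 ± 60.1 FPKM in controls (0.997; SD, n = 3 each). NPM1 and ribosomal protein genes have many pseudogenes with which reads may be shared, so these levels are uncertain. HIPK2, a kinase that phosphorylates p53, rose 1.35-fold (limma adjusted p = 0.0278), a call lost without any 1 library other than fluvastatin replicate 1 (0.0622 to 0.0921), over a range of 0.0142 to 0.252. CSNK1A1, the casein kinase that works with MDM4, rose 1.23-fold (limma adjusted p = 0.0411), and was lost without any 1 library other than control replicate 2 (0.0903 to 0.121), over a range of 0.0139 to 0.320. USP7, which removes ubiquitin from MDM2 and p53, was at 93.3 ± 6.47 FPKM in fluvastatin libraries and 114.9 ± 32.1 FPKM in controls (limma adjusted p = 0.345), and USP10 at 67.3 ± 2.17 FPKM in fluvastatin libraries and 82.2 ± 6.48 FPKM in controls (0.0643; SD, n = 3 each).

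**Figure D5:**
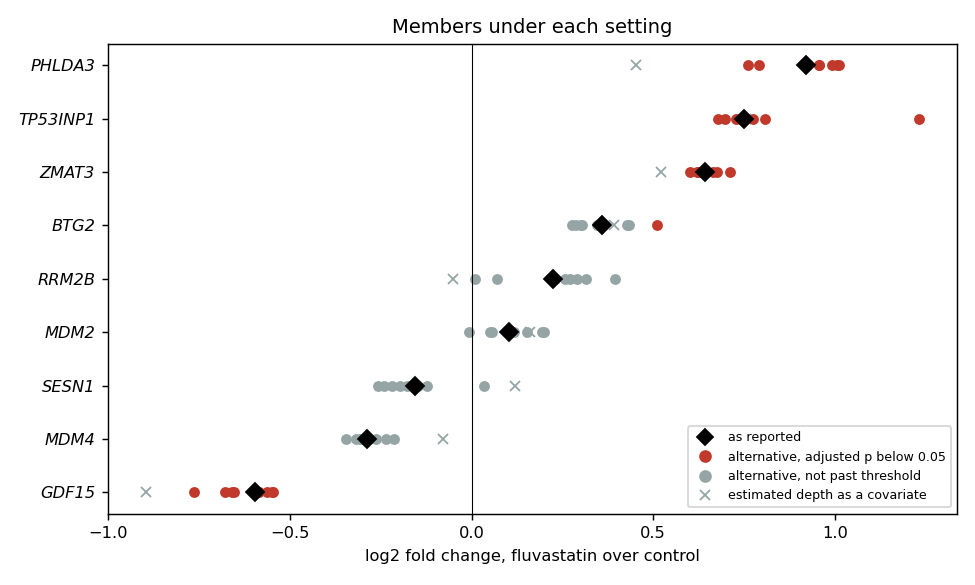
Log2 fold change of the 9 members, fluvastatin over control (horizontal axis), as reported (diamonds) and under each alternative setting (circles, red for an adjusted p below 0.05), with crosses for depth as a covariate. PHLDA3, TP53INP1, ZMAT3 and GDF15 keep their sign in every setting tried, and their crosses are not past the threshold.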

How the data were processed

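RNA-seq values of 6 libraries were used, 3 fluvastatin and 3 control, grouped by their titles. STAR, Cufflinks, Cuffdiff and hg38 are named, per the submitters' processing notes. The deposited values, 1 for each gene in each library, were taken as FPKM because Cufflinks and Cuffdiff are named. They are not whole and sum to 686133.2 to 729564.0 per library, which alone does not settle the unit. The header names no unit, and tool versions, annotation release, strand setting and rescaling between libraries are not given in the sources used here. No counts are given, so depth was estimated only relative to control replicate 0, from the commonest ratio of low values.

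Testing used limma 3.58.1 in R 4.3.3 on log2(FPKM + 1) for genes reaching 1 FPKM in 3 or more libraries, without a trend, robust fitting or replicate block. Folds are ratios of mean FPKM, and log2 fold changes are on the log2(FPKM + 1) scale, which understates changes of low genes. Lists are described by counts, with no set test. The fit was tried on simulated normal values and the depth estimate on simulated Poisson counts. The deposited values may behave otherwise, so these trials do not show that either holds for them. Coordinates come from GENCODE release 29 on GRCh38 and promoters from RefSeq.

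The members and lists were chosen with earlier results of these data known. Named genes were the members, all called genes of the lists, up to 4 others per list with the highest mean FPKM, and the 5 genes nearest to MDM2. Some genes of the pathway are not reported here. The fit was repeated with each library left out, with depth as a covariate, with the replicate block, with trend and robust on, after quantile or trimmed-mean scaling, with a pseudocount of 0.1, and with the filter removed or raised to a mean of 5 FPKM.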

Additional observations from a re-analysis of the deposited data

How the results depend on the processing

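Of 14 alternatives, depth as a covariate changed the most. It left 72 genes (59 higher, 13 lower) in place of 3971 (2017 and 1954), 0 members in either direction, 1 higher and 0 lower of the other p53 targets, 0 regulators and 0 relatives. It leaves few degrees of freedom and depth follows the groups. Under the other alternatives 8 of the 9 members stayed on their side of the threshold wherever they were tested, and BTG2 was the exception. The sign turned only for members that did not pass (MDM2 and SESN1, and under depth SESN1 and RRM2B). At a mean of at least 5 FPKM 0 members fell, because GDF15 was then not tested, and TP53INP1, SESN1 and BTG2 were not tested either. Correlations of deviations were -0.002, 0.085 and 0.084 for equal replicate numbers and ran from -0.136 to 0.058 for unequal ones. Such few and small values cannot settle whether the numbers pair the libraries. The replicate block left 3154 genes, 3 members higher and 1 lower, 1 lower in place of 2 of the other targets and 1 higher in place of 3 of the regulators. Under it PMAIP1 passed (adjusted p = 0.0372), and FBXO22 (0.0539), SUSD6 (0.0503), CSNK1A1 (0.0698), HIPK2 (0.0587) and TOB2 (0.0834) did not. Leaving out 1 library gave 2340 to 3416 genes (1274 to 1785 higher, 1066 to 1631 lower), 3 to 4 members higher and 1 lower, 7 to 12 higher and 1 to 2 lower of the other targets, 1 to 2 higher and 2 to 3 lower of the regulators, and 5 to 6 higher and 1 to 2 lower of the relatives. Over 73 genes and all alternatives, 80 of the single-gene values lost a call and 19 gained one, and 51 of the losses came without depth in the fit. The cause was not tested. FPKM without counts set the limit at low genes such as TP53INP1 and GDF15, whose counting error is unknown.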
